A study of Mus musculus with 14 samples.

Results

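The interleukin 1 family comprises cytokines, a receptor antagonist and the receptors that read them. The set described here holds 10 listed genes: Il1a, Il1b, Il1f9, Il33, Il18, Il1rn, Il1r2, Il1rap, Il1r1 and Il1rl1. A gene was taken from the deposited table where the array annotation named a probe set with that symbol alone, and its brightest probe set was used. Of the 10 genes, 8 were found among 19938 measured genes. Il1r1, the signalling interleukin 1 receptor, and Il1rl1, which encodes the interleukin 33 receptor ST2, had no probe set named here and are not analysed here. The study used male C57BL/6J mice aged 5 months, whose plantaris was overloaded by synergist ablation: surgery takes away neighbouring muscles, and the plantaris carries their load. Affymetrix Mouse Gene 1.0 ST arrays were hybridised with muscle RNA of days 1, 3, 5, 7, 10 and 14 of overload and at day 0. Each day had 2 arrays, a pool of right and a pool of left plantaris muscles, each from 6 animals. There was no sham surgery among the groups, so overload, surgery and time cannot be told apart. All groups shared the same strain, with no engineered allele named.

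Interleukin 1 alpha and beta are early signals of tissue damage. Both bind the same receptor, which recruits the accessory protein encoded by Il1rap and passes the signal through MyD88 and IRAK kinases to NF-kappaB and MAP kinases. Interleukin 1 beta and interleukin 18 are made as inactive precursors that caspase-1 cuts within inflammasomes, whereas interleukin 33 is stored in nuclei and is active when released. The family limits itself with an antagonist, Il1rn, and a decoy receptor, Il1r2. In injured muscle, neutrophils and macrophages are known sources of interleukin 1, and stromal cells are a known source of interleukin 33.

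The tissue label was checked against 14 skeletal muscle fibre genes, which had log2 intensities between 12.04 and 14.40 on every array. Markers of hepatocytes, a cell type foreign to muscle, differed between pools. Their summed intensity was 91225 in the right and 27373 in the left pool of day 1, against 20350 in the right and 87689 in the left pool of day 0. On the other arrays that sum lay between 4850 and 43303. Hepatocyte markers also differed between days: against day 0, 5 of 19 were called lower at day 5 and 16 at day 7. Over all genes, 37.8% were called lower at day 7. The list's median log2 change at day 7 was -2.53. The right pool of day 0 also exceeded both pools of day 7 (10854.5 and 6353.7), so the signal differed between these days without the left pool of day 0 as well. Of 48 pairs of member and day, 30 were called against day 0, and of 40 pairs of member and step, 14 were called. Of all 19938 genes, between 8394 and 13206 were called at a single day against day 0. At a single step, between 230 and 6920 were called. Without the pools of high hepatocyte signal (left at day 0, right at day 1), 1 of the 30 calls was lost and 2 were gained. Of the 14 step calls, 1 was lost and 2 were gained, as given below. That fit had 1 pool each for days 0 and 1. Right and left pools were compared over all days: limma called 0 of 8 members and 0 of 19938 genes, a background of 0%, while 586 genes and 1 member, Il1rap, had an unadjusted p under 0.05. Whether a day's right and left muscles were from the same mice is not in the labels, and the p-values rest on the difference between pools alone. In whole muscle, more cells of a type and more RNA per cell cannot be told apart.

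All 8 measured genes rose at day 1 against day 0, and the number above day 0 then shrank. At day 1 limma called 8 of 8 higher, where 20.3% of all genes were called higher. All 8 passed a 2-fold rise, which 6.12% of all genes did. At day 3 the count was 7 of 8, against a background of 24.2%, and at day 5 it was 5 of 8, against 27.0%. At day 7 it was 4 of 8, against 28.5%, and at day 10 it was 4 of 8, against 23.6%. At day 14 the count was 2 of 8, against 21.4%, which is close to the share of all genes. A gene was called at an adjusted p under 0.05. Limma called 0 members lower at any of the 6 days, and 0 had an unadjusted p under 0.05 in that direction. The members' median log2 change was 2.98 at day 1 and 1.44 at day 3. It was then 0.93 at day 5 and 0.44 at day 7, and finally 0.36 at day 10 and 0.0079 at day 14. Over all genes the medians of those days ran between -0.16 and -0.07. The F test over all days called 8 of 8 members, where it called 71.3% of all genes.

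**Figure D1:**
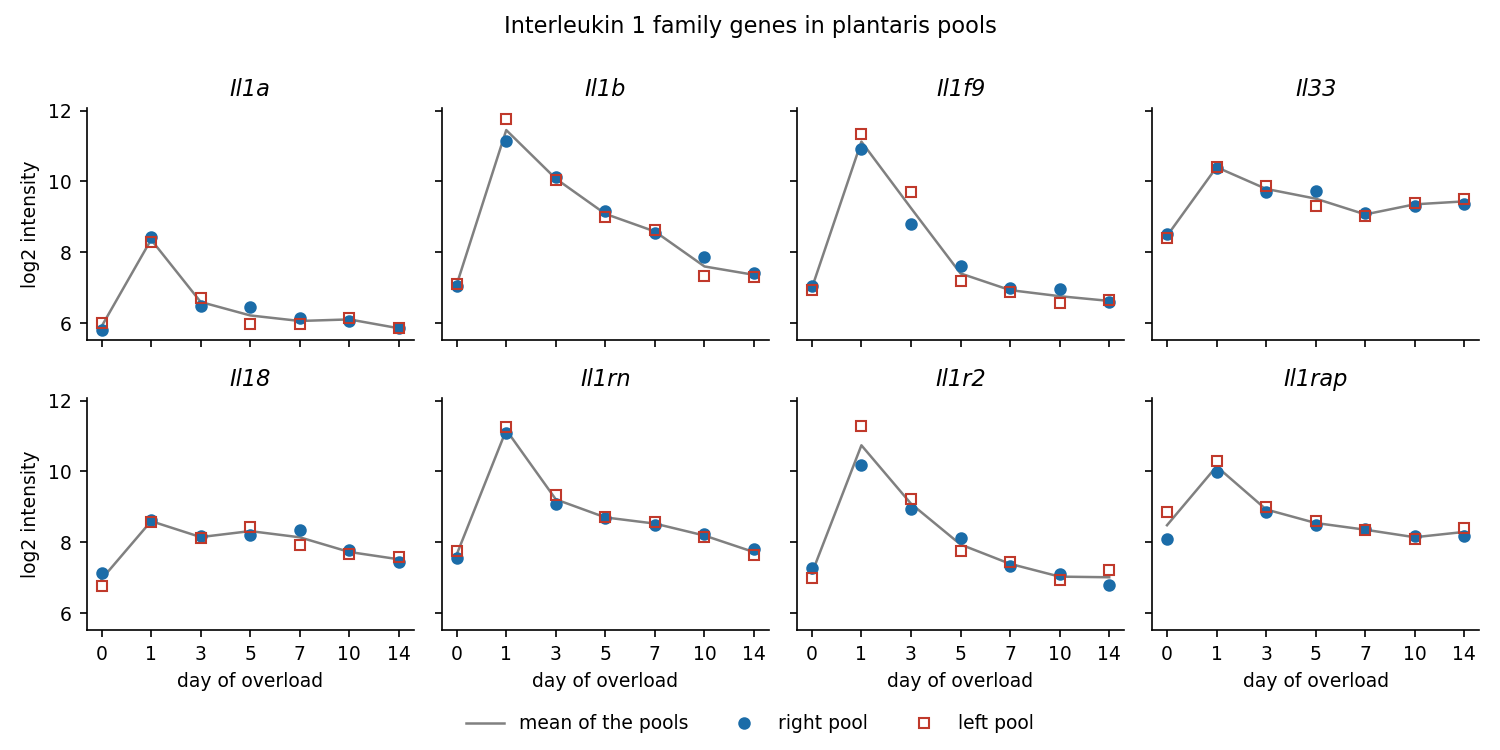
Log2 intensity (vertical axis) of the 8 measured genes at each day of overload (horizontal axis, days evenly spaced), with filled circles for the right pool, open squares for the left pool and a line through the mean of both. Every gene is highest at day 1, and Il1b, Il1f9 and Il1r2 span the widest ranges.

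Il1b encodes interleukin 1 beta, the main secreted form, and showed the largest change of the set. Its promoter window is shown because the members moved together at day 1. The window runs from 250 bases before to 50 bases after the transcription start in RefSeq GRCm38.p6, at chr2:129371090-129371389 on the minus strand. Capitals mark TATAAA, at position -31 from the transcription start.
Il1b: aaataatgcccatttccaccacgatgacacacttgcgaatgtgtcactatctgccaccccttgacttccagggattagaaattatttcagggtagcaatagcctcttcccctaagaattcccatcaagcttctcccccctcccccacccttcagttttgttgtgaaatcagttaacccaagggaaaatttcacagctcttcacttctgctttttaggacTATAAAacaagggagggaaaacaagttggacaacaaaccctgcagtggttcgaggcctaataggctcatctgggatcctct
TATAAA was searched on the plus strand alone and is present in 8.32% of all 32851 RefSeq windows of this length. Il1b log2 intensity in the right and left pools was 7.06 and 7.12 at day 0, 11.14 and 11.76 at day 1, 10.11 and 10.04 at day 3, and 9.17 and 8.99 at day 5. It was 8.55 and 8.62 at day 7, 7.88 and 7.32 at day 10, and 7.42 and 7.31 at day 14. Both pools of every later day lay above both pools of day 0. The log2 change at day 1 was 4.36 ± 0.19 (SE, n = 2 pools each), a 20.6-fold rise (adjusted p = 1.84e-08). Il1b rose 7.94-fold at day 3, 3.99-fold at day 5 and 2.82-fold at day 7. At day 10 the log2 change was 0.51 ± 0.19 (adjusted p = 0.0472), and it missed the threshold in 17 of 27 alternative settings, among them a fit without the right pool of day 10 (0.23, adjusted p = 0.381). At day 14 the change was 0.27 ± 0.19 and was not called (adjusted p = 0.275).

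Il1a encodes interleukin 1 alpha, which is active without cleavage and is released by dying cells. Its window lies at chr2:129309923-129310222 on the minus strand of GRCm38.p6. Capitals mark TATAAA, at position -32 from the transcription start, and a match to TGANTCA, the AP-1 motif, at position -12.
Il1a: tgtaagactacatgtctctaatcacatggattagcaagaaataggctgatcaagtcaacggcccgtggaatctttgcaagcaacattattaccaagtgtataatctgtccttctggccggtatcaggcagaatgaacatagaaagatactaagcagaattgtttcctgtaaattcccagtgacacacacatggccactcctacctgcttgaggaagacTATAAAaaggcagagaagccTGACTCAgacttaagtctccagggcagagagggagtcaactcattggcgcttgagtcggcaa
TGANTCA, searched on both strands, is present in 7.81% of all windows. Il1a log2 intensity was 5.81 and 6.00 in the right and left pools of day 0, 8.43 and 8.28 at day 1, 6.49 and 6.70 at day 3, and 6.46 and 5.98 at day 5. From day 7 to day 14 its values lay between 5.85 and 6.16. The day 1 pools stood above those of every other day. Il1a rose by 2.45 ± 0.14 on the log2 scale at day 1 (5.47-fold, adjusted p = 1.37e-07) and by 0.69 ± 0.14 at day 3 (adjusted p = 0.0018). At day 5 the change was 0.31 ± 0.14 and was not called (adjusted p = 0.0754), but it was called after quantile normalization (0.54, adjusted p = 0.00992) and without the left pool of day 5 (0.55, adjusted p = 0.00569). The probe set is dim, among the lowest of 3 equal classes of genes by mean.

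Il1f9 encodes interleukin 36 gamma, a family member best known from skin and other epithelia. Its window is shown for contrast with the preceding ones, since none of the 5 motifs searched was found in it. It lies at chr2:24186226-24186525 on the plus strand of GRCm38.p6.
Il1f9: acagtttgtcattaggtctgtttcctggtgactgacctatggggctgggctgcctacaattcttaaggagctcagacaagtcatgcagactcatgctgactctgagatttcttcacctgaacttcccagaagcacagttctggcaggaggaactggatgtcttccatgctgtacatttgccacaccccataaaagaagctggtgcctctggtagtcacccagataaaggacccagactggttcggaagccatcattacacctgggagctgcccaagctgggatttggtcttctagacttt
The motifs were the kappaB consensus, TGANTCA, TTGCNNAA for C/EBP factors, GAGGAAGT for PU.1, and TATAAA. A window without a match says only that these letters are not in it. Il1f9 log2 intensity was 7.04 and 6.94 in the right and left pools of day 0, 10.90 and 11.34 at day 1, 8.80 and 9.69 at day 3, and 7.62 and 7.19 at day 5. It was 6.99 and 6.87 at day 7, 6.96 and 6.56 at day 10, and 6.59 and 6.67 at day 14. The pools of days 1, 3 and 5 lay above those of day 0, those of days 7 and 10 overlapped them, and those of day 14 lay below. Il1f9 rose by 4.14 ± 0.26 on the log2 scale at day 1 (17.6-fold, adjusted p = 2.1e-07) and by 2.26 ± 0.26 at day 3 (4.79-fold). At day 5 the change was 0.41 ± 0.26 (adjusted p = 0.172), and at day 14 it was -0.36 ± 0.26 (adjusted p = 0.276), so neither was called. Of 10 measured keratinocyte markers, 2 rose and 2 fell at day 1, where 20.3% of all genes were called higher and 34.7% lower. Their summed intensity was 2620 and 2453 in the right and left pools of day 1, against 2549 and 2588 at day 0. Krt5 and Krt14, defining keratins of the skin's basal layer, had log2 changes of -0.19 and -0.18 at day 1 and were not called. Sprr1a, another gene of that list, rose by 1.11 at day 1 and by 1.74 at day 3.

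Il33 encodes interleukin 33, an alarm signal read by ST2 on regulatory T cells, mast cells and innate lymphoid cells. RefSeq lists a pair of windows for it, and the one shown holds TTGCNNAA and TATAAA, in capitals, at positions -85 and -29 from its transcription start. It lies at chr19:29945540-29945839 on the plus strand of GRCm38.p6. The other window, not shown, holds TATAAA at position -203 from its own transcription start.
Il33: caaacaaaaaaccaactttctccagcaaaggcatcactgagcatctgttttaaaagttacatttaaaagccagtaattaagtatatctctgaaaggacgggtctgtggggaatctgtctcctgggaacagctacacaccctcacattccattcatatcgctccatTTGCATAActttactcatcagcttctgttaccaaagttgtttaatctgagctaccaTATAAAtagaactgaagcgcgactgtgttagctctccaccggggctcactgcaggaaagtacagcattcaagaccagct
TTGCNNAA, searched on both strands, is present in 10.8% of all windows. Il33 log2 intensity was 8.52 and 8.41 in the right and left pools of day 0, 10.39 and 10.42 at day 1, 9.71 and 9.87 at day 3, and 9.73 and 9.30 at day 5. It was 9.11 and 9.03 at day 7, 9.32 and 9.39 at day 10, and 9.37 and 9.50 at day 14. Both pools of every later day lay above both pools of day 0, and those of days 10 and 14 also lay above those of day 7. Il33 rose by 1.94 ± 0.12 on the log2 scale at day 1 (3.84-fold, adjusted p = 2.26e-07). Its rise was 0.61 ± 0.12 at day 7 (1.52-fold, adjusted p = 0.00123) and 0.97 ± 0.12 at day 14 (1.97-fold, adjusted p = 7.37e-05). Day 14 exceeded day 7 by 0.37 ± 0.12 (adjusted p = 0.0424), where 13.5% of all genes were called higher. That comparison was chosen after the values were seen, and the call was lost in 10 of 27 alternative settings, including each fit without a pool of day 7, 10 or 14 and the fit without the pools of high hepatocyte signal (adjusted p = 0.0502). Markers of fibro-adipogenic progenitors, the stromal cells of muscle, moved over the same days. Their summed intensity was 42263 and 44269 in the right and left pools of day 14, against 26727 and 25688 at day 0. Of 10 such markers, 8 fell and 1 rose at day 1, where 34.7% of all genes were called lower and 20.3% higher. At day 14, 8 rose and 1 fell, where 21.4% of all genes were called higher and 20.7% lower. The part of these cells in the Il33 values was not tested.

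Il18 encodes interleukin 18, which acts with interleukin 12 to raise interferon gamma in T and natural killer cells. Its log2 intensity was 7.14 and 6.77 in the right and left pools of day 0, 8.63 and 8.56 at day 1, 8.18 and 8.11 at day 3, and 8.20 and 8.43 at day 5. It was 8.35 and 7.93 at day 7, 7.79 and 7.66 at day 10, and 7.44 and 7.59 at day 14. All later pools lay above both pools of day 0. Il18 rose by 1.64 ± 0.15 on the log2 scale at day 1 (3.12-fold, adjusted p = 3.94e-06) and by 1.18 ± 0.15 at day 7 (2.27-fold, adjusted p = 3.69e-05). At day 7 it kept 72.2% of its day 1 log2 change, compared with 34.3% for Il1b, 31.3% for Il33 and 24.8% for Il1rn. The order differed at day 14, with 50.2% for Il33, 34.3% for Il18, 6.28% for Il1b and 1.89% for Il1rn. Il18 rose by 0.56 ± 0.15 at day 14 (1.48-fold, adjusted p = 0.0109). That call was lost without the left pool of day 0 (0.38, adjusted p = 0.0999), without the pools of high hepatocyte signal (0.38, adjusted p = 0.0989), and without the left pool of day 14 (adjusted p = 0.0796).

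Il1rn encodes the interleukin 1 receptor antagonist, which occupies the receptor without signalling. RefSeq lists 3 windows for it, and the one shown, at chr2:24336610-24336909 on the plus strand of GRCm38.p6, holds TGANTCA, in capitals, at position -141 from its transcription start.
Il1rn: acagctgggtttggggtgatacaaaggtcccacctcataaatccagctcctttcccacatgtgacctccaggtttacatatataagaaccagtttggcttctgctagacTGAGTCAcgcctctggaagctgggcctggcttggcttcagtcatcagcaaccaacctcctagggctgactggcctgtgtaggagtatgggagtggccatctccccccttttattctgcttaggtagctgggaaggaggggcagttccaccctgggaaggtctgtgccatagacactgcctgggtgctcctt
None of the searched motifs was found in the other Il1rn windows, or in those of Il1r2, Il1rap and Il18. Il1rn log2 intensity was 7.55 and 7.76 in the right and left pools of day 0, 11.09 and 11.25 at day 1, 9.09 and 9.33 at day 3, and 8.69 and 8.71 at day 5. It was 8.49 and 8.56 at day 7, 8.24 and 8.14 at day 10, and 7.81 and 7.63 at day 14. The pools of days 1 to 10 lay above those of day 0, and those of day 14 overlapped them. Il1rn rose by 3.52 ± 0.11 on the log2 scale at day 1 (11.4-fold, adjusted p = 1.24e-09). It rose 2.94-fold at day 3, 2.07-fold at day 5, 1.83-fold at day 7 and 1.45-fold at day 10 (adjusted p = 0.00152), and at day 14 its change of 0.07 ± 0.11 was not called (adjusted p = 0.633).

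Il1r2 encodes the decoy receptor, which binds interleukin 1 and cannot signal. Its log2 intensity was 7.26 and 6.98 in the right and left pools of day 0, 10.18 and 11.29 at day 1, 8.94 and 9.23 at day 3, and 8.12 and 7.75 at day 5. From day 7 to day 14 its values lay between 6.80 and 7.45. The pools of days 1, 3 and 5 lay above those of day 0, and the day 1 pools differed from each other by more than those of any other member on any day. Il1r2 rose by 3.61 ± 0.29 on the log2 scale at day 1 (12.2-fold, adjusted p = 1.37e-06) and by 1.96 ± 0.29 at day 3 (3.90-fold). At day 5 it rose by 0.81 ± 0.29 (1.76-fold, adjusted p = 0.0284), a call lost in 7 of 27 alternative settings, among them those without the left pool of day 0 (adjusted p = 0.134) or the right pool of day 5 (adjusted p = 0.157). With the mean of the hepatocyte markers as a covariate the day 5 change was 0.29 (adjusted p = 0.33).

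Il1rap encodes the accessory protein shared by the receptors for interleukin 1, interleukin 33 and interleukin 36. Its log2 intensity was 8.10 and 8.86 in the right and left pools of day 0, 9.98 and 10.30 at day 1, 8.86 and 8.99 at day 3, and 8.49 and 8.59 at day 5. From day 7 to day 14 its values lay between 8.10 and 8.41. The day 1 pools lay above those of day 0, and the day 0 pools were far apart, with the higher value in the pool of high hepatocyte signal. At day 1 the pool of high hepatocyte signal, the right one, had the lower value. Il1rap rose by 1.66 ± 0.19 on the log2 scale at day 1 (3.16-fold, adjusted p = 2.81e-05), by 2.19 without the pools of high hepatocyte signal, and by 1.28 without the right pool of day 0. Its later changes depended on which day 0 pool was used. With both, day 3 differed by 0.45 ± 0.19 and was not called (adjusted p = 0.0835). Without the left pool of day 0, the change was 0.82 at day 3 (adjusted p = 0.000721) and 0.44 at day 5 (adjusted p = 0.0217), both called higher. Without the right pool of day 0, it was -0.50 at day 7, then -0.72 at day 10 and -0.57 at day 14, all called lower (adjusted p = 0.0108, 0.00204 and 0.00998). With both pools, those changes were -0.13, -0.34 and -0.19 and were not called. The part of hepatocyte RNA in these values was not tested.

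**Figure D2:**
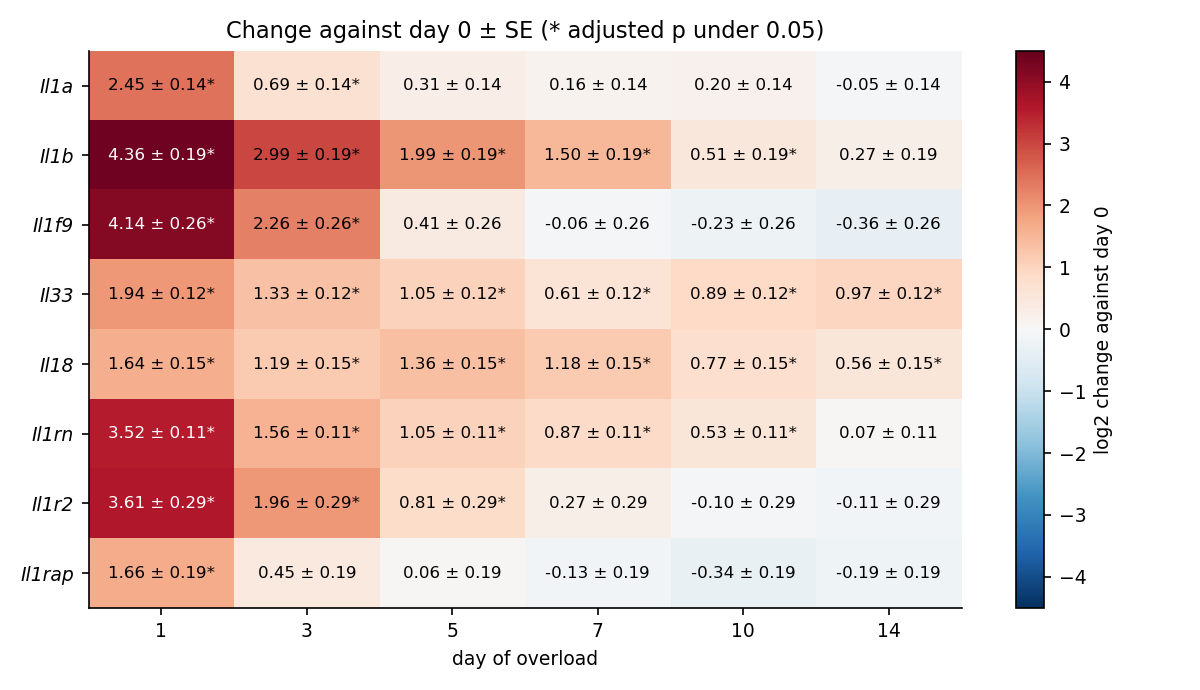
Log2 change of each gene (rows) at days 1 to 14 (columns) minus day 0, as fitted in limma, with its SE. Colour shows the size on the scale at right, and a star marks an adjusted p under 0.05. All 8 genes carry a star at day 1, and Il33 and Il18 carry one at day 14.

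From day 1 to day 3 all 8 members fell, where 13.2% of all genes were called lower. The falls ranged between 3.89-fold for Il1rn and 1.37-fold for Il18, and that of Il18 was lost without the pools of high hepatocyte signal (adjusted p = 0.0784) or without any single pool of day 1 or day 3 (adjusted p = 0.0827 to 0.137). From day 3 to day 5, 4 of 8 fell (Il1b, Il1rn, Il1r2 and Il1f9), against a background of 4.74%. Those of Il1b, Il1rn and Il1r2 were lost in 4, 5 and 6 of 27 alternative settings, and that of Il1r2 without any single pool of day 3 or day 5 (adjusted p = 0.0513 to 0.177). The largest was Il1f9, which fell by 1.85 ± 0.26 on the log2 scale (adjusted p = 0.00134). Between day 5 and day 7 limma called 0 of 8 members, where 1.15% of all genes were called, and 2 members, Il1b and Il33, were lower at an unadjusted p under 0.05. At day 10, 1 of 8 members was lower than at day 7, against a background of 9.52%: Il1b fell by 0.99 ± 0.19 (adjusted p = 0.00652). That call was lost in 3 of 27 alternative settings, among them the fit without the left pool of day 10, where the change was -0.71. At day 14, 1 of 8 was lower than at day 10, against 2.56%: Il1rn fell by 0.47 ± 0.11 (adjusted p = 0.0335), a call that 9 of 27 alternative settings lost. Falls were also called, without the pools of high hepatocyte signal, for Il1rap at day 5 against day 3 (adjusted p = 0.0256) and for Il1rn at day 10 against day 7 (adjusted p = 0.0387). In all, 14 of 40 pairs of member and step were called.

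For each member, the genes most alike were taken by Pearson's r over the 14 arrays among 13753 genes, as a description, since the arrays share their days. Il1b was most like Ier3 (r = 0.994), an early response gene, Il6 (0.992), and Clec4e (0.992), a receptor of macrophages and neutrophils. Il1r2 was most like Arg2 (0.994), Trem1 (0.989), a receptor that amplifies myeloid inflammation, and the neutrophil attractant Cxcl2 (0.986). Il1f9 was most like Pram1 (0.989), the neutrophil attractant Cxcl3 (0.989) and Arg2 (0.987). Il1a was most like Tmem41b (0.990), Acod1 (0.988), which makes itaconate in macrophages, and Mxd1 (0.981). Il1rn was most like Egr1 (0.987), Usp18 (0.986), an interferon-induced gene, and Sesn2 (0.985). Il1rap was most like Gch1 (0.987), Tgm1 (0.981) and Mctp2 (0.969). The highest values were lower for Il33, with Fgl2 (0.961), Hbegf (0.960) and Rrad (0.959). Il18 was most like Tmem185b (0.981), Hnrnpf (0.976) and Zfp263 (0.975).

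Markers of several cell types changed over the same days. All 9 measured neutrophil markers rose at day 1, where 20.3% of all genes were called higher. Their summed intensity was 14782 and 29238 in the right and left pools of day 1, against 3415 and 2000 at day 0. At day 7 that sum was 1817 and 2114, below the right pool of day 0. The left pool of day 1 was the higher one for this sum and for 6 of 8 members, and the lower one for Il1a and Il18. Markers of neutrophil precursors of the marrow summed to 19746 and 12762 in the right and left pools of day 1, against 9809 and 5120 at day 0. Of these 9 markers, 2 rose at day 1 and 7 were not called, where 20.3% of all genes were called higher. Their median log2 change at day 1 was 0.04. Cxcr2, the neutrophil chemokine receptor, had log2 intensities of 11.50 and 12.66 at day 1, against 7.22 and 6.66 at day 0. Of 15 macrophage markers, 12 rose at day 1 and 15 at day 3, and 14 were still called higher at day 14. Over all genes, 20.3%, 24.2% and 21.4% were called higher on those days. Their summed intensity was highest at day 3, with 51677 and 51357 in the right and left pools, against 7938 and 7224 at day 0. Of 14 skeletal muscle fibre markers, 7 fell at day 1 and 14 fell at days 3 and 7, with a median log2 change of -0.86 at day 7. Over all genes, 34.7% were called lower at day 1 and 37.8% at day 7. The part of these cells in the members' values was not tested.

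**Figure D3:**
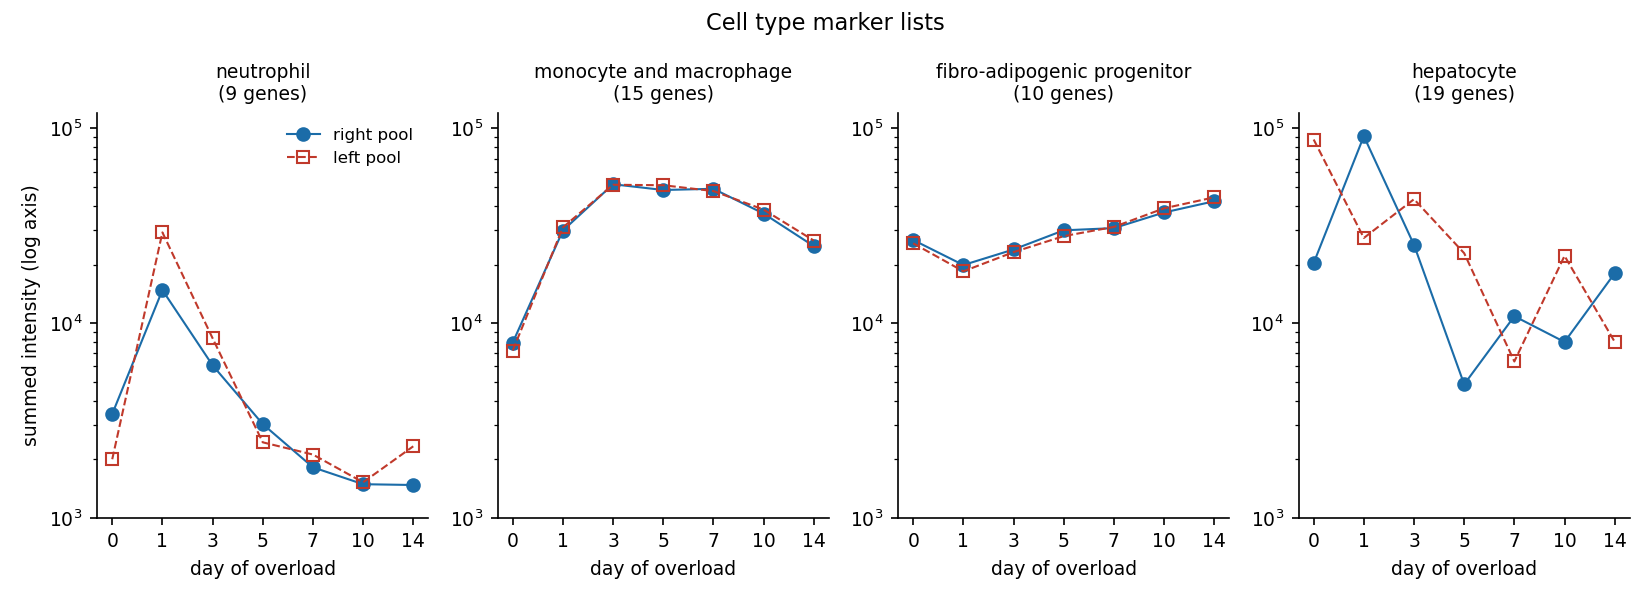
Summed intensity of 4 marker lists (vertical log axis) at each day of overload (horizontal axis, days evenly spaced), with filled circles for right pools and open squares for left pools. The neutrophil sum peaks at day 1 and the macrophage sum at day 3, the fibro-adipogenic sum is highest at day 14, and the hepatocyte sum differs between the pools of days 0, 1 and 5 in particular.

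Among 11 measured family genes outside the set, Il1rl2 was highest at day 7. It encodes the receptor for interleukin 36, through which the product of Il1f9 acts. Il1rl2 log2 intensity was 7.06 and 7.09 in the right and left pools of day 0, 8.17 and 8.51 at day 1, 8.64 and 8.63 at day 3, and 9.28 and 9.27 at day 5. It was 9.71 and 9.34 at day 7, 9.10 and 9.22 at day 10, and 8.84 and 9.03 at day 14. All later pools lay far above those of day 0, with the highest at day 7. It rose by 1.27 ± 0.13 on the log2 scale at day 1 (2.41-fold, adjusted p = 1.15e-05), by 2.45 ± 0.13 at day 7 (5.47-fold, adjusted p = 4.76e-08) and by 1.86 ± 0.13 at day 14 (3.63-fold, adjusted p = 1.04e-06). Il1f9 was called higher at days 1 and 3, and the difference between these courses was not tested.

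**Figure D4:**
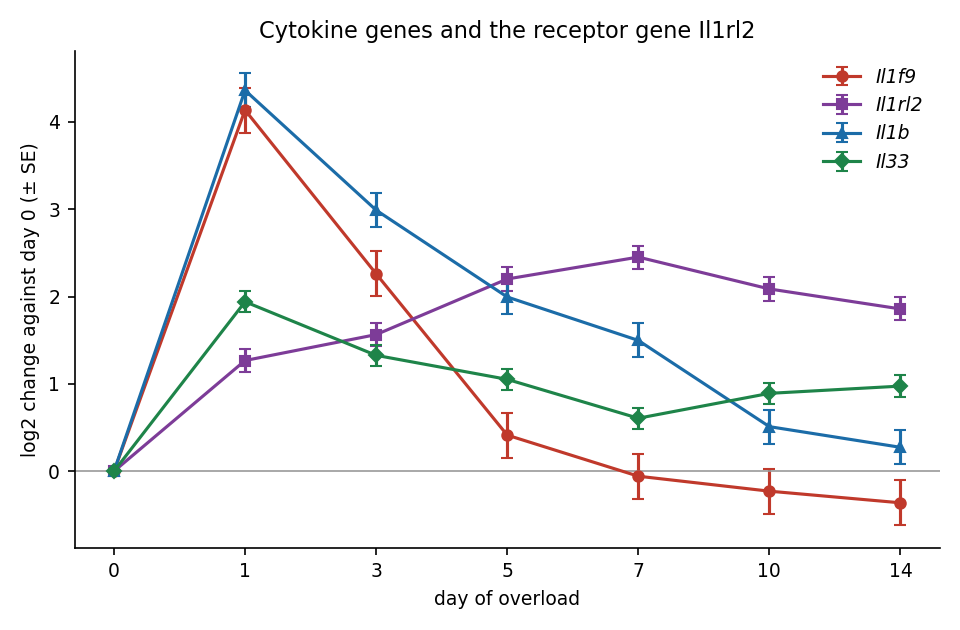
Log2 change against day 0 (vertical axis, bars give the SE) of Il1f9, Il1rl2, Il1b and Il33 at each day of overload (horizontal axis, days evenly spaced; day 0 is set to 0). Il1f9 and Il1b are highest at day 1, while Il1rl2 is highest at day 7 and stays 1.86 above day 0 at day 14.

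Il18rap, the accessory chain of the interleukin 18 receptor, rose by 1.92 ± 0.26 on the log2 scale at day 1 (3.79-fold, adjusted p = 7.77e-05) and by 1.14 ± 0.26 at day 3 (adjusted p = 0.00327). Il18r1, the binding chain of that receptor, was called at none of the 6 days, with changes between 0.02 and 0.31. Its probe set is dim, with a mean log2 intensity of 6.55, and 16.9% of genes had a lower mean. Il18bp, a soluble inhibitor of interleukin 18, rose at each of the 6 days, by 0.30 to 0.53. Sigirr, an inhibitory receptor of the family, fell by 0.41 ± 0.08 at day 1 (adjusted p = 0.0018) and by 0.23 ± 0.08 at day 7 (adjusted p = 0.0324). Il1f5, the interleukin 36 receptor antagonist, fell by 0.37 at day 5 and 0.39 at day 7, and Il1f10, which encodes interleukin 38, fell by 0.48 and 0.35 on those days. Both are dim, with mean log2 intensities of 6.92 and 6.26, and the F test over all days did not call Il1f5 (adjusted p = 0.0944). Of the 11 family genes, 3 fell and 2 rose at day 7, where 37.8% of all genes were called lower and 28.5% higher. Without the pools of high hepatocyte signal, the day 7 falls of Sigirr (-0.16, adjusted p = 0.196), Il1f5 (-0.40, adjusted p = 0.0563) and Il1f10 (-0.24, adjusted p = 0.138) and the day 5 fall of Il1f5 (adjusted p = 0.0691) were not called. Il18bp at day 14 was not called without the right pool of day 0 (0.21, adjusted p = 0.122). Il1f6 and Il1f8, which encode interleukin 36 alpha and beta, and the neuronal receptor genes Il1rapl1 and Il1rapl2 were called at none of the 6 days. Their probe sets are very dim, with mean log2 intensities of 5.57, 5.10, 5.22 and 4.79. At most 7.01% of genes had a lower mean, so the lack of a call does not show stable expression.

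Genes around the family in its pathway were described from lists, by counts called against day 0. Over all genes, 20.3% were called higher and 34.7% lower at day 1. At day 7 these shares were 28.5% and 37.8%, and at day 14 they were 21.4% and 20.7%. Of 20 inflammasome and cytokine processing genes, 16 rose and 0 fell at day 1, 16 rose and 3 fell at day 7, and 11 rose and 1 fell at day 14. Without the pools of high hepatocyte signal, 15 rose and 3 fell at day 1, 14 rose and 4 fell at day 7, and 10 rose and 4 fell at day 14. The list's median log2 change at day 1 was 0.59, against -0.14 for all genes. Nlrp3, the sensor of the best-known inflammasome, rose by 2.44 ± 0.18 at day 1 (5.41-fold, adjusted p = 8.26e-07) and was not called at day 14 (0.069, adjusted p = 0.775). The DNA sensor Aim2 rose by 2.17 at day 1 and 1.54 at day 7, and Casp4, which senses bacterial lipopolysaccharide, rose by 1.89 at day 1. Casp8, an initiator caspase, rose by 1.72 ± 0.09 at day 1, by 1.98 ± 0.09 at day 7 (adjusted p = 1.12e-08) and by 1.43 ± 0.09 at day 14. P2rx7, the ATP-gated channel that triggers inflammasomes, rose by 0.63 at day 1, by 1.47 at day 7 and by 1.07 at day 14.

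Of 20 genes of receptor signalling, 9 rose and 4 fell at day 1, 6 rose and 5 fell at day 7, and 6 rose and 2 fell at day 14. At day 7 the share that rose was close to the 28.5% of all genes called higher. Their median change was 0.19 at day 1. Myd88, the adaptor of the receptor, rose by 2.23 ± 0.08 on the log2 scale at day 1 (4.68-fold, adjusted p = 4.5e-09), by 1.84 at day 7 and by 1.19 at day 14. Map3k8, a kinase upstream of ERK, rose by 2.41 ± 0.08 at day 1 (5.32-fold), and Irak2 rose by 1.38. Irak3, an inhibitory member of the IRAK kinases, rose by 1.21 at day 1, by 0.97 at day 7 and by 0.82 at day 14. Mapk14, which encodes a p38 kinase, fell by 0.67 at day 1 and by 0.78 at day 7.

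Of 14 NF-kappaB factors and feedback inhibitors, 11 rose and 1 fell at day 1, 10 rose and 1 fell at day 7, and 8 rose and 1 fell at day 14. At day 14, 6 rose and 0 fell when the pools of high hepatocyte signal were left out. The median change at day 1 was 0.96. Nfkbiz, an inducible nuclear cofactor, rose by 1.75 ± 0.11 on the log2 scale at day 1, the ubiquitin-editing inhibitor Tnfaip3 by 1.38 and the inhibitor Nfkbia by 1.38. The inhibitor Nfkbie rose by 1.37 at day 1, by 1.36 at day 7 and by 0.87 at day 14. Bcl3 rose by 1.33 at day 1, by 1.23 at day 7 and by 0.63 at day 14, and Tnip3, which restrains NF-kappaB, rose by 1.08 at day 1 and by 1.30 at day 7. Several of these genes limit NF-kappaB.

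Of 23 known target genes of interleukin 1, 17 rose and 1 fell at day 1, 13 rose and 3 fell at day 7, and 8 rose and 2 fell at day 14. The median change was 1.08 at day 1 and 0.11 at day 14, and many of these genes also answer to other signals. Cxcl2 rose by 5.20 ± 0.28 on the log2 scale at day 1 (36.9-fold, adjusted p = 6.72e-08). The monocyte attractants Ccl2 and Ccl7 rose by 4.83 ± 0.12 and 4.35 ± 0.10 at day 1, and Ccl2 by 3.04 at day 7. Mmp13, a collagenase, rose by 1.49 ± 0.26 at day 1 (2.82-fold), by 3.68 at day 7 (12.8-fold, adjusted p = 3.99e-07) and by 3.48 at day 14 (11.2-fold). Ptgs2, the inducible cyclooxygenase of prostaglandin synthesis, rose by 3.89 at day 1, by 3.12 at day 7 and by 1.61 at day 14.

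Of 13 genes of the ST2 and type 2 response, 4 rose and 5 fell at day 1, 1 rose and 9 fell at day 7, and 0 rose and 3 fell at day 14. At day 1 the share that fell was close to the 34.7% of all genes called lower. At day 14, 0 were higher at an unadjusted p under 0.05. Without the pools of high hepatocyte signal, 2 rose and 5 fell at day 7. The median change was -0.30 at day 7, against -0.15 for all genes. Arg1, an arginase of alternatively activated macrophages, rose by 3.60 ± 0.43 on the log2 scale at day 1 (12.2-fold) and by 1.12 at day 7, and fell by 1.32 at day 14. Arg1 is also a known liver gene, and without the left pool of day 0 its change was 2.02 at day 7 and -0.43 at day 14 (adjusted p = 0.216, not called), while without the right pool it was 0.23 at day 7 (adjusted p = 0.442, not called) and -2.22 at day 14. Chil3, a chitinase-like protein of myeloid cells, rose by 2.94 at day 1. Retnla fell by 2.46 ± 0.25 at day 1 and by 2.51 at day 7, and Ccl11, the eosinophil attractant, fell by 1.82 ± 0.12 at day 7 (adjusted p = 1.72e-07) and by 0.52 at day 14. Among cells that carry ST2, the sum over 10 mast cell markers was 1965 and 2014 in the right and left pools of day 14, against 1633 and 1644 at day 0. The sum over 10 markers of T cells and innate lymphoid cells was 1975 and 2007 at day 14, against 1958 and 1927 at day 0. The log2 change of Foxp3, which defines regulatory T cells, was -0.02 at day 14 and was not called.

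Of 9 genes of the interleukin 18 response, 2 rose and 2 fell at day 1, 4 rose and 3 fell at day 7, and 4 rose and 1 fell at day 14. At day 1 the share that rose was close to the 20.3% of all genes called higher. Without the pools of high hepatocyte signal, 2 rose and 0 fell at day 14. The interferon-induced chemokine Cxcl10 rose by 4.45 ± 0.14 on the log2 scale at day 1 (21.8-fold, adjusted p = 1.36e-09) and by 1.78 at day 7. Cxcl9, another such chemokine, rose by 1.32 at day 1, by 1.59 at day 7 and by 1.54 at day 14. Nkg7, a gene of cytotoxic granules, rose by 0.81 at day 7 and 0.78 at day 14. When the left array of day 0 was left out, the Nkg7 changes were 0.38 (adjusted p = 0.0753) and 0.35 (adjusted p = 0.143) and were not called. Tbx21, which directs T helper 1 cells, fell by 0.63 at day 1.

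**Figure D5:**
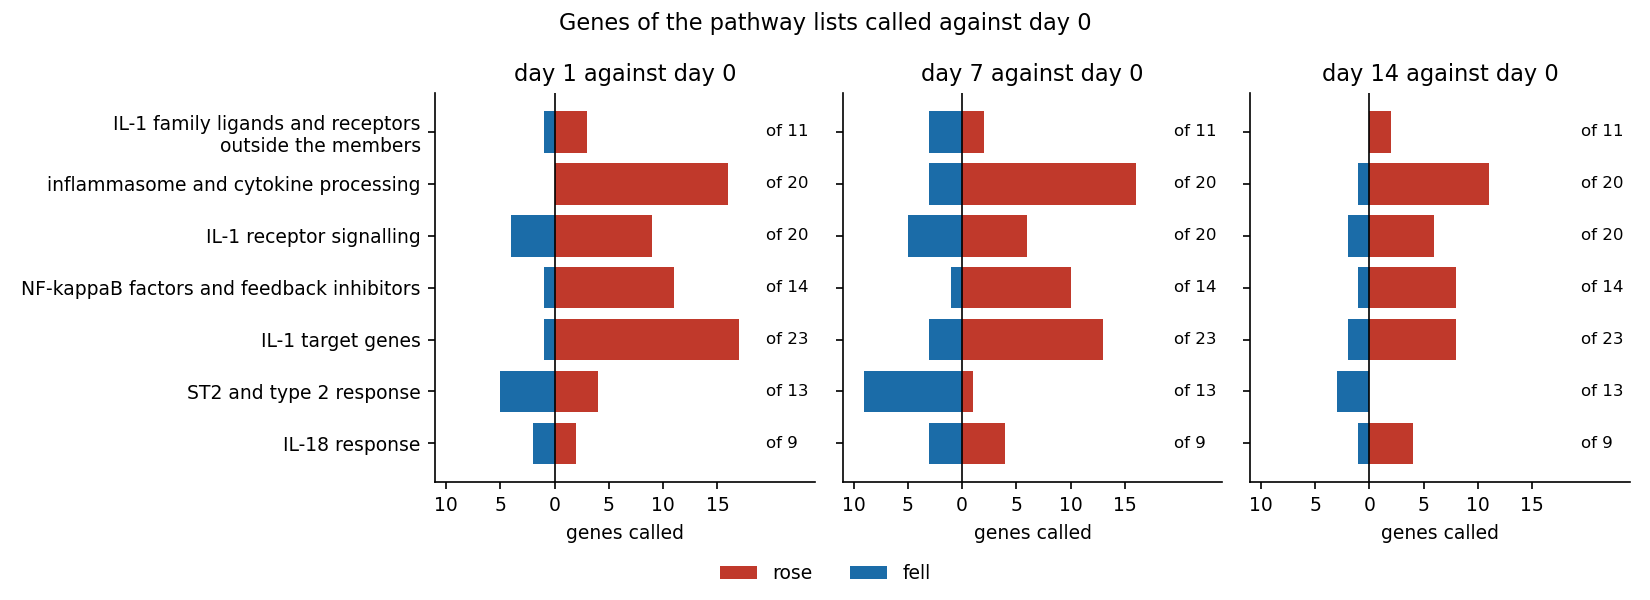
Number of genes called higher (bars to the right) and lower (bars to the left) than at day 0 in each pathway list (rows) at days 1, 7 and 14 (panels), with the number measured at the right edge. The target gene list has 17 genes called higher at day 1 and 8 at day 14, and the ST2 and type 2 list has 9 called lower at day 7.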

How the data were processed

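RNA of plantaris pools was measured on 14 arrays, 2 for each of 7 days. The deposited values are linear intensity values, 1 per probe set, made by the authors with Partek, per the submitters' processing notes. The version, summary method and normalization are not given in the sources used here. Array medians lay between 242.8 and 254.9. The RNA input is 100 ng in the design text but 250 ng in the labelling protocol. On arrays the number of samples limits the precision.

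The log2 of the intensity was taken without further normalization. Of 35556 probe sets, 21789 had exactly 1 gene symbol, 1621 had several, and 12146 were not listed in the annotation. For 999 genes with several probe sets the brightest was used, leaving 19938 genes. Each gene was fitted with limma 3.58.1 (R 4.3.3), 1 mean per day, with 7 residual degrees of freedom and the default prior. Two-sided p-values of each comparison were adjusted by Benjamini-Hochberg across the 19938 genes. The fit was tested on simulated data. Tables and figures were made with pandas 2.3.3 and matplotlib 3.10.9.

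The members and gene lists were chosen with earlier results of these data known. All members and family genes are named, and from each other list the called genes with the 3 largest log2 changes at day 1, 3 at day 7 and 2 at day 14. For each member the 3 most alike genes are named. Keratinocyte, neutrophil, T cell and progenitor markers named, and values of listed genes at further days, were chosen after their values were seen. Promoter windows came from RefSeq GRCm38.p6, where all 8 members had 1 or more of 11 windows. Alternatives were other scalings, filters, probe set rules, priors, thresholds, a side block, a hepatocyte covariate and left-out pools. The differences between right and left pools were correlated between days over all genes. Of 21 correlations, 9 exceeded 0.1, and they ranged from -0.58 to 0.44 (median -0.06). They compare different days and cannot show whether a day's right and left pools shared animals. The main fit did not pair samples by side.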

Additional observations from a re-analysis of the deposited data

How the results depend on the processing

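Of 30 calls of a member against day 0, 20 held under every alternative run, among them all 8 at day 1. There were 27 alternatives, and 26 for Il1a, which the filter on dim genes leaves out. Size thresholds moved the counts most, since they ask for larger changes. Under a 2-fold threshold and under limma's treat against 1.5-fold, members called were 2 and 2 at day 7, 0 and 0 at day 10, and 0 and 0 at day 14, and pairs of member and step called were 8 and 4. Pathway genes called were 39 and 42 at day 1, 33 and 36 at day 3, 34 and 33 at day 5, 26 and 28 at day 7, 20 and 21 at day 10, and 12 and 10 at day 14. Leaving out both pools of high hepatocyte signal, 1 member was called at day 14.

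With each array left out in turn, members called ranged 8 to 8 at day 1, 7 to 8 at day 3, 4 to 6 at day 5, 4 to 5 at day 7, 3 to 4 at day 10 and 1 to 3 at day 14. For day 14, the lowest count came from leaving out the left array of either day 0 or day 14. Pathway genes called ranged 69 to 78 at day 1, 64 to 70 at day 3, 64 to 79 at day 5, 60 to 81 at day 7, 42 to 60 at day 10 and 38 to 53 at day 14. A day left with 1 pool was assumed to vary like the other days. All these counts hold calls in either direction. Those of members without the right pool of day 0 include Il1rap as a gene called lower. Its changes there were -0.50 at day 7, -0.72 at day 10 and -0.57 at day 14. Side as a replicate block ended 1 call against day 0, that of Il1b at day 10 (adjusted p = 0.0619), and the Il33 call of day 14 against day 7 (adjusted p = 0.0562).

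Changes near 0 turned their sign, and the cause was not tested. Quantile normalization gave 0.068 for Il1a at day 14 and -0.019 at day 10 against day 7, 0.027 for Il1r2 at day 10, -0.074 for Il1rap at day 5 and 0.14 for Il1f9 at day 7. Equal array medians gave -0.024 for Il1rn at day 14 and -0.054 for Il1rap at day 5. The hepatocyte covariate gave -0.33 for Il1r2 and 0.043 for Il1rap at day 7. Without the pools of high hepatocyte signal, Il1a changed by 0.044 at day 14, and Il1rap by 0.25 at day 7, by 0.038 at day 10 and by 0.19 at day 14. With each array left out in turn, these changes against day 0 spanned 0: Il1a at day 14 (-0.15 to 0.044), Il1rn at day 14 (-0.041 to 0.17), Il1r2 at day 10 (-0.23 to 0.044) and day 14 (-0.32 to 0.097), Il1f9 at day 7 (-0.11 to 0.00083), and Il1rap at day 5 (-0.31 to 0.44), day 7 (-0.50 to 0.25), day 10 (-0.72 to 0.038) and day 14 (-0.57 to 0.19). Among steps, so did day 7 minus day 5 for Il1a (-0.40 to 0.083) and Il18 (-0.38 to 0.034), day 10 minus day 7 for Il1a (-0.053 to 0.14) and Il1f9 (-0.37 to 0.032), and day 14 minus day 10 for Il1b (-0.51 to 0.039), Il1r2 (-0.23 to 0.19) and Il1f9 (-0.34 to 0.070).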
